A study of Mus musculus with 58 samples.

Results

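The circadian clock genes Per1, Per2, Per3, Cry1, Cry2, Arntl, Nr1d1, Nr1d2, Dbp and Tef were followed in the muscles of mice that carried human pancreatic tumours. They were the 10 genes of a list chosen by symbol, each with 1 probe set, out of 23185 named genes on the array, and all 10 were measured. Adult female NSG mice, which lack most lymphocytes and so tolerate grafts of human tissue, carried on their pancreas pieces of pancreatic ductal adenocarcinoma (PDAC) from cachectic patients, a patient-derived xenograft (PDX). Sham mice of the same strain had the operation without a tumour. The animals were killed when tumour-bearing mice showed severe cachexia, the wasting of muscle and fat, or when tumours exceeded 3 cm. Tumours of 4 patients made 4 cohorts, each with its own sham group, and 2 muscles were sampled: the tibialis anterior of the lower leg and the diaphragm. Each muscle had 17 PDX arrays (3, 5, 5 and 4 in cohorts 1, 2, 3 and 4) and 12 sham arrays (3 in every cohort). Mice lived under a 12-h light and 12-h dark cycle. The hour of death is not given in the sources used here, so time of day and group cannot be told apart where they differ.

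The mammalian clock is a feedback loop of transcription. The protein of Arntl (also called Bmal1) pairs with CLOCK and switches on genes that carry E-box sequences, among them the Per and Cry genes, whose proteins then repress that pair, and Nr1d1 and Nr1d2, which encode the REV-ERB repressors of Arntl. Dbp and Tef encode activators of D-box sequences that carry the rhythm to output genes. In mouse muscle these transcripts swing over the day, with Arntl near the opposite phase of Dbp and the Per genes, and glucocorticoids induce Per1.

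These elements were looked for in the RefSeq promoters (GRCm38.p6, 250 bases before to 50 bases after a start site), which held 9 of the 10 genes in 12 promoters. The letters searched, on both strands, were CACGTG (E-box), CACGTT (a variant E-box), TTATGTAA and TTACGTAA (D-boxes), and TAGGTCA and TGGGTCA (elements shared by REV-ERB and its activating rivals, the RORs). Of all 32851 promoters of this length, 7.15% held CACGTG, 4.68% CACGTT, 0.938% TTATGTAA, 0.119% TTACGTAA, 2.61% TAGGTCA and 3.98% TGGGTCA. At least 1 of them stood in 8 of the 12 clock promoters, and how many of all promoters held at least 1 was not counted. Shown are 3 promoters, 250 bases before the start site, that hold an activator's element, with the matched letters in capitals. Also shown are 27 bases of an Arntl promoter that hold the element shared by REV-ERB and the RORs. Per1 lies at chr11:69098699-69098948 (plus strand), Cry1 at chr10:85185055-85185304 (minus strand), Per3 at chr4:151044666-151044915 (minus strand) and the Arntl stretch at chr7:113207531-113207557 (plus strand).
Per1: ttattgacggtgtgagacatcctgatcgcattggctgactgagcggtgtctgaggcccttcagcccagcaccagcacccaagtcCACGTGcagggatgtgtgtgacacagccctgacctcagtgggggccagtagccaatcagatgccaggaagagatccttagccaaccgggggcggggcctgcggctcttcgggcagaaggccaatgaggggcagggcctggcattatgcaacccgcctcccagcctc
Cry1: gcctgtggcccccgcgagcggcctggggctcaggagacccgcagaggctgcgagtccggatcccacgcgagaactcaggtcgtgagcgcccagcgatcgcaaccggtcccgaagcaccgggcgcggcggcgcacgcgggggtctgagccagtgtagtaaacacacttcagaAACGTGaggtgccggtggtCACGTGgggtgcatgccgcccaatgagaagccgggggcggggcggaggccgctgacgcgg
Per3: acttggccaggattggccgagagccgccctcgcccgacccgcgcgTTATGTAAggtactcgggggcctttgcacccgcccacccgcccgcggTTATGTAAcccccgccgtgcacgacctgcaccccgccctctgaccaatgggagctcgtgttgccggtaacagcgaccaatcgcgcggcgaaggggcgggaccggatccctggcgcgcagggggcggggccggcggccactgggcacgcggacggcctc
Arntl: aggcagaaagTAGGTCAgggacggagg
The Per1 promoter shown held CACGTG 166 bases upstream of the start. Cry1 held CACGTG 60 bases upstream and, 79 bases upstream, CACGTT on the other strand, which reads AACGTG above. Per3 held TTATGTAA at 205 and at 158 bases upstream, and the Arntl promoter shown held TAGGTCA 31 bases downstream. CACGTG also stood in 2 Tef promoters (127 and 138 bases upstream), and CACGTT in those of Cry2 (166 bases upstream) and Nr1d1 (28 bases upstream). None of the searched letters stood in this window of Dbp or Nr1d2, or of another promoter each of Per1 and Arntl. This says only that they are not in this window. These are matches of letters and not measured binding.

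Values are log2 expression levels after the authors' RMA normalization, so a difference of 1 is a 2-fold difference, and levels of different genes are not compared with each other. Differences are PDX minus sham, given as the equally weighted mean of the 4 cohorts with its standard error (SE). A gene passed with an adjusted p under 0.05 in limma, with Benjamini-Hochberg adjustment over all 23185 genes. Muscle fibre markers were high in all arrays (means over 10 genes of 11.1 to 11.5 in PDX and 11.3 to 11.5 in sham tibialis anterior, and 10.3 to 11.3 in PDX and 10.7 to 11.4 in sham diaphragm). Other cell types differed between the groups. All 6 fibroblast markers fell in the PDX tibialis anterior, with array means of 4.95 to 7.19 in PDX and 7.17 to 7.96 in sham. In the diaphragm 4 of 5 macrophage markers rose, with array means of 6.14 to 7.77 in PDX and 5.65 to 6.42 in sham. Tendon markers fell in the PDX tibialis anterior for 3 of 4, at 3.36 to 4.43 in PDX and 4.30 to 5.76 in sham, and both erythroid markers rose, at 3.57 to 8.42 in PDX and 3.24 to 5.89 in sham. Of the fibre markers 2 of 10 were lower in each muscle and 1 was higher in the tibialis anterior, and 2 of 6 fibroblast markers were higher in the diaphragm (7.62 to 9.38 in PDX and 7.79 to 8.54 in sham). Of 4 endothelial markers 1 was higher and 1 lower in each muscle. In the tibialis anterior 1 of 5 macrophage markers was higher, and in the diaphragm 1 of 3 adipocyte markers was lower and 1 of 3 mesothelial markers higher. The part of these shifts in the results was not tested beyond the fits named further on. Liver RNA was present in 15 of the 29 diaphragm arrays, 9 PDX and 6 sham, whose mean over 11 hepatocyte markers exceeded that of every tibialis anterior array (6.13). Diaphragm means of these markers ran over 3.70 to 11.04 in PDX and 3.74 to 10.58 in sham, and no hepatocyte marker passed the test. Diaphragm results are therefore also given over the 14 arrays without this signal, which leaves cohorts 2 to 4, since all PDX arrays of cohort 1 had it. Cohort 3 kept only 1 sham array in that set, replicate 3, so its differences there rest on that array. In bulk muscle, fewer cells of a type and less RNA per cell cannot be told apart.

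In the tibialis anterior 6 of the 10 clock genes passed, against 12.8% of all genes. The repressor genes Per1, Per2, Cry1 and Cry2 were higher in tumour-bearing mice and Nr1d1 and Dbp were lower, each with the same sign in all 4 cohorts. Genes that were higher made up 6.32% of all genes and those that were lower 6.53%. The median difference of the 10 was 0.06, against -0.01 for all genes tested. In the diaphragm 6 of 10 also passed, against 12.5% of all genes: Per1, Per2, Cry1 and Cry2 were higher, and Arntl and Nr1d1 were lower. Genes that were higher made up 5.89% and those that were lower 6.58% of all genes there. The median of the 10 was 0.24, against -0.00 for all genes. The 4 repressor genes and Nr1d1 thus passed in both muscles, Dbp in the tibialis anterior alone and Arntl in the diaphragm alone, and the tests of the difference between the muscles follow further on. Per3, Nr1d2 and Tef passed in neither. These tests take arrays as replicates. With the cohort as the replicate, a test on 4 differences a muscle, 3 clock genes passed in the tibialis anterior and 2 in the diaphragm, against 4.84% and 4.39% of all genes. Per1 (limma adjusted p = 0.0676), Cry2 (0.0854) and Dbp (0.0507) no longer did in the tibialis anterior, nor did Per1 (0.343), Cry1 (0.21), Cry2 (0.102) and Nr1d1 (0.165) in the diaphragm. Over the diaphragm arrays without liver RNA, Per1, Per2, Per3, Cry2 and Arntl passed, against 2.82% of all genes (1.31% higher and 1.51% lower).

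A second reading asked whether all PDX arrays of a cohort lay beyond all its sham arrays. With 3 to 5 arrays against 3 this is a loose criterion, and many genes meet it. For the tibialis anterior, the share of all genes with every PDX array higher was 13.0%, 2.27%, 4.96% and 5.60% in cohorts 1, 2, 3 and 4, and the share with every PDX array lower was 12.6%, 2.85%, 5.46% and 6.76%. For the diaphragm the shares were 9.73%, 6.94%, 3.28% and 4.75% higher and 11.0%, 4.05%, 3.23% and 7.72% lower. Per1, Per2 and Cry2 were higher without overlap in 3 tibialis anterior cohorts each, which held in at least 3 cohorts for 1.41% of all genes.

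Per1 encodes a period protein, part of the complex that represses its own transcription. Its lowest, median and highest levels in the tibialis anterior were 8.27, 8.81 and 9.14 in PDX and 6.44, 8.19 and 8.76 in sham. The PDX arrays lay above all sham arrays in cohorts 1, 3 and 4 and overlapped them in cohort 2. Per1 was 0.82 ± 0.11 (SE) higher in PDX, or 1.77-fold (limma adjusted p = 5.21e-06), with cohort differences of 0.90, 0.36, 1.81 and 0.22. In the diaphragm the values were 7.71, 8.28 and 9.05 in PDX and 6.0, 7.85 and 8.66 in sham. Most of that range came from cohort 3, where Per1 read 8.70, 8.97, 8.52, 7.91 and 8.85 in PDX and 6.10, 6.38 and 6.0 in sham. Every PDX array of that cohort lay more than 1 unit above every sham array, while the groups overlapped in the other 3. Diaphragm Per1 was 0.76 ± 0.11 higher in PDX (1.69-fold, limma adjusted p = 4.89e-05), with cohort differences of 0.44, 0.13, 2.43 and 0.05. The call rested on cohort 3: without it the difference was 0.20 (limma adjusted p = 0.308). Over the 14 arrays without liver RNA it was 1.00. That set still holds cohort 3, with PDX arrays at 8.70, 8.52 and 8.85 and a single sham array at 6.0.

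Per2, the second period gene, was higher in both muscles. Tibialis anterior levels were 5.15, 5.87 and 6.23 (lowest, median and highest) in PDX and 4.45, 5.20 and 5.92 in sham, a difference of 0.53 ± 0.09 (1.45-fold, limma adjusted p = 9.81e-05). The groups did not overlap in cohorts 1, 2 and 3, and the cohort differences were 0.50, 0.46, 0.96 and 0.21. In the diaphragm it read 4.76, 6.08 and 6.52 in PDX and 3.75, 5.13 and 6.12 in sham. Per2 was 0.86 ± 0.16 higher there (1.81-fold, limma adjusted p = 0.000954), with cohort differences of 0.84, 0.74, 1.38 and 0.48. The diaphragm groups stood apart in cohorts 2 and 4, and in cohort 3 the lowest PDX array (4.76) fell just under the highest sham array (4.79). Without liver RNA the diaphragm difference was 1.07, in a set where the only sham array left in cohort 3 was the lowest sham array, at 3.75.

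Per3, the third period gene, which in mice is dispensable for the core rhythm, did not pass in either muscle. It ranged over 4.33 to 6.36 in PDX and 4.68 to 6.39 in sham tibialis anterior (difference 0.08 ± 0.13, limma adjusted p = 0.811). Its diaphragm range was 4.76 to 6.41 in PDX and 3.45 to 6.43 in sham, with a difference of 0.34 ± 0.17 (limma adjusted p = 0.251) and a 95% interval of -0.02 to 0.70. In diaphragm cohort 3 every PDX array was above every sham array, at 5.95, 5.81, 5.48, 4.76 and 5.65 in PDX and 4.63, 4.76 and 3.45 in sham. The lowest PDX array (4.763) was only just above the highest sham array (4.761). Without liver RNA the diaphragm difference was 0.69, in a set where the only sham array left in cohort 3 was the one at 3.45.

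**Figure D1:**
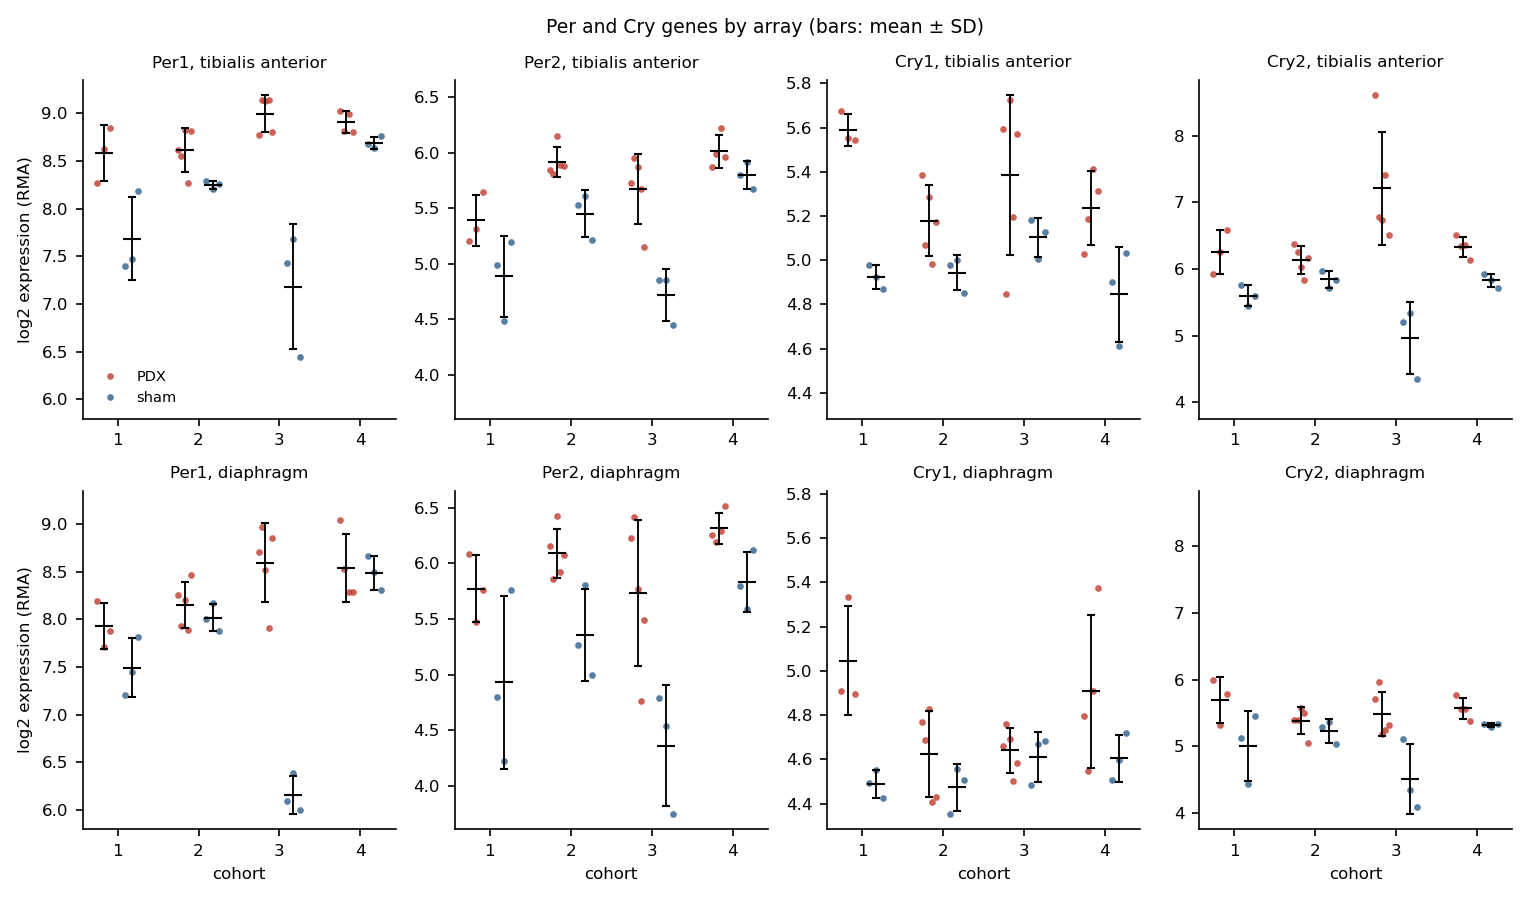
Log2 expression of Per1, Per2, Cry1 and Cry2 in every array (points), by cohort on the horizontal axis, with PDX left of sham in each cohort, the tibialis anterior above and the diaphragm below; bars are the group mean ± SD. The sham arrays of cohort 3 are the lowest groups for Per1, Per2 and Cry2, and in diaphragm Per1 they sit at 6.0 to 6.38, below all other arrays.

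The cryptochrome genes Cry1 and Cry2 encode the partners of the PER proteins in repression. Cry1 in the tibialis anterior read 4.85, 5.32 and 5.72 (lowest, median and highest) in PDX and 4.61, 4.98 and 5.18 in sham. The difference was 0.39 ± 0.08 (1.31-fold, limma adjusted p = 0.0008), with cohort values of 0.66, 0.24, 0.28 and 0.39. The groups stood apart in cohort 1, at 5.67, 5.55 and 5.54 in PDX and 4.98, 4.92 and 4.87 in sham, and overlapped elsewhere. Without cohort 1 the difference was 0.30 and did not pass (limma adjusted p = 0.0591). Diaphragm Cry1 read 4.40, 4.76 and 5.37 in PDX and 4.35, 4.53 and 4.72 in sham. That difference was 0.26 ± 0.07 (1.2-fold, limma adjusted p = 0.0186), with cohort values of 0.56, 0.15, 0.03 and 0.30, and again only cohort 1 was free of overlap. It was 0.16 without cohort 1 (limma adjusted p = 0.318) and 0.06 over the arrays without liver RNA (limma adjusted p = 0.82), a set that holds no cohort 1.

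Cry2 had the largest difference of the 10 genes in the tibialis anterior. It read 5.84, 6.36 and 8.61 in PDX and 4.35, 5.72 and 5.97 in sham, and the difference was 0.92 ± 0.15 (1.9-fold, limma adjusted p = 0.000117). The groups stood apart in cohorts 1, 3 and 4, and the cohort differences were 0.66, 0.29, 2.25 and 0.51. Cohort 3 read 8.61, 6.78, 6.73, 7.41 and 6.51 in PDX and 5.20, 5.34 and 4.35 in sham, so both a high PDX group and a low sham group set its size. Without cohort 3 the tibialis anterior difference was 0.48 (limma adjusted p = 0.000863). In the diaphragm Cry2 read 5.06, 5.50 and 5.99 in PDX and 4.09, 5.21 and 5.46 in sham, a difference of 0.52 ± 0.11 (1.43-fold, limma adjusted p = 0.00334). The diaphragm cohort differences were 0.69, 0.16, 0.97 and 0.25, with no overlap in cohorts 3 and 4. Over the arrays without liver RNA Cry2 was 0.57 higher, with the lowest sham array, at 4.09, as the only one left in cohort 3.

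Arntl encodes the activator at the head of the loop. In the diaphragm it read 3.72, 4.33 and 6.72 (lowest, median and highest) in PDX and 4.63, 5.41 and 7.16 in sham. In cohort 2 the level was 3.72, 4.31, 4.07, 4.30 and 4.25 in PDX and 5.21, 4.89 and 5.45 in sham. In cohort 3 it was 4.57, 4.54, 5.64, 6.41 and 5.67 in PDX and 6.51, 6.82 and 7.16 in sham. All PDX arrays of cohorts 2, 3 and 4 lay below all sham arrays of their cohort, although the cohorts themselves sat at different levels. Of all genes, 1.22% were lower in PDX without overlap in at least 3 diaphragm cohorts. In cohort 1 the groups overlapped widely, at 4.33, 6.72 and 5.36 in PDX and 6.17, 6.67 and 4.63 in sham. The diaphragm difference was -0.96 ± 0.23, a PDX level of 0.515 times that of sham (limma adjusted p = 0.00627), with cohort differences of -0.35, -1.06, -1.46 and -0.96. Leaving out cohort 2 (-0.92, limma adjusted p = 0.0755) or cohort 3 (-0.79, limma adjusted p = 0.0589) ended the call. Without liver RNA the difference was -1.20, in a set where the only sham array left in cohort 3 was the highest sham array, at 7.16.

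In the tibialis anterior Arntl did not pass. It read 4.79, 5.67 and 8.69 in PDX and 4.97, 5.87 and 7.11 in sham, with a difference of -0.06 ± 0.20 (limma adjusted p = 0.908) and a 95% interval of -0.47 to 0.34. No cohort was free of overlap. The highest value came from replicate 1 of the PDX arrays of cohort 3, which also had the highest Cry2 (8.61) and the lowest Per3 (4.33) and Dbp (4.42) of all PDX arrays of that muscle. Without this array the Arntl difference was -0.18 (limma adjusted p = 0.416), and Cry2 and Dbp kept their calls (0.84 and -0.65, limma adjusted p = 2.58e-06 and 0.000462).

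Nr1d1 encodes REV-ERB alpha, the nuclear receptor that represses Arntl. Tibialis anterior levels were 8.15, 8.64 and 9.36 (lowest, median and highest) in PDX and 8.87, 9.43 and 10.12 in sham. Within each of the 4 cohorts every PDX array lay below every sham array, which held for 0.315% of all genes in that direction. The difference was -0.75 ± 0.09, a level of 0.593 times that of sham (limma adjusted p = 1.23e-06), with cohort values of -1.46, -0.55, -0.42 and -0.59. Cohort 1 read 8.53, 8.72 and 8.52 in PDX and 9.98, 10.12 and 10.03 in sham. In the diaphragm the values were 6.45, 8.67 and 9.62 in PDX and 8.40, 9.47 and 10.02 in sham, a difference of -0.95 ± 0.23 (0.516 times, limma adjusted p = 0.00642). Here only cohort 1 was free of overlap, at 9.11, 6.45 and 7.16 in PDX and 10.02, 9.51 and 9.63 in sham. The cohort values were -2.15, -0.82, 0.16 and -1.01, so cohort 3 had the opposite sign. Without cohort 1 the diaphragm difference was -0.55 (limma adjusted p = 0.135), and without liver RNA it was -0.38 (limma adjusted p = 0.441). Nr1d2, which encodes REV-ERB beta, did not pass, at 0.02 ± 0.06 in the tibialis anterior (limma adjusted p = 0.879) and -0.06 ± 0.10 in the diaphragm (limma adjusted p = 0.829). With its 95% intervals of -0.09 to 0.14 and -0.27 to 0.16, Nr1d2 was among the more tightly measured of the 10.

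Dbp encodes a D-box activator and a direct target of the Arntl protein. Levels in the tibialis anterior were 4.42, 7.25 and 8.24 (lowest, median and highest) in PDX and 5.98, 8.22 and 8.49 in sham. Cohort 1 read 6.48, 6.94 and 6.52 in PDX and 8.49, 7.83 and 8.44 in sham, and cohort 4 read 7.25, 7.59, 7.69 and 7.88 in PDX and 8.49, 8.26 and 8.18 in sham. In these 2 cohorts all PDX arrays were below all sham arrays, and in the other 2 they overlapped. The difference was -0.76 ± 0.18 (0.591 times, limma adjusted p = 0.0055), with cohort values of -1.61, -0.31, -0.41 and -0.71. Without cohort 1 it was -0.47 and did not pass (limma adjusted p = 0.236). In the diaphragm Dbp read 6.03, 7.68 and 8.61 in PDX and 4.79, 8.12 and 9.13 in sham, a difference of -0.04 ± 0.25 (limma adjusted p = 0.963, 95% interval -0.55 to 0.48). That mean averaged cohort values of unlike sign, -0.81, -0.11, 1.26 and -0.48. In cohort 3 Dbp was above sham in every PDX array, at 7.68, 7.21, 6.64, 6.65 and 7.42 in PDX and 6.38, 6.41 and 4.79 in sham. Over the arrays without liver RNA the Dbp value was 0.48, with the sham array at 4.79 as the only one left in cohort 3. Tef, a relative of Dbp, did not pass, at 0.05 ± 0.07 in the tibialis anterior (limma adjusted p = 0.801) and 0.21 ± 0.10 in the diaphragm (limma adjusted p = 0.18).

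**Figure D2:**
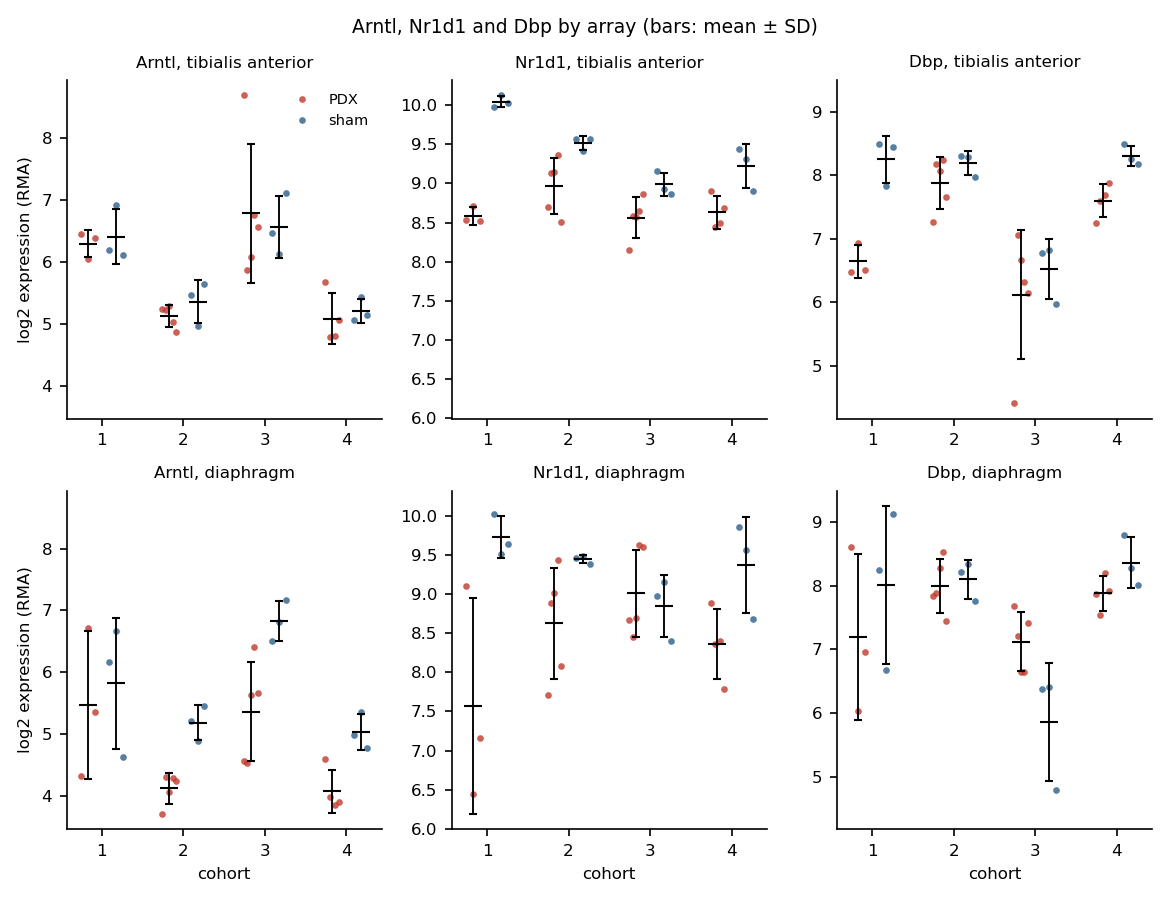
Log2 expression of Arntl, Nr1d1 and Dbp in every array (points), by cohort on the horizontal axis, with PDX left of sham, the tibialis anterior above and the diaphragm below; bars are the group mean ± SD. Nr1d1 in the tibialis anterior lies lower in PDX in every cohort without overlap, and Arntl in the diaphragm does so in cohorts 2, 3 and 4.

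Cohort by cohort, few differences passed over all genes. Cohort 1 had 4 calls in the tibialis anterior: Per1 and Cry1 were higher and Nr1d1 and Dbp lower, against 2.46% of all genes passing in that cohort. Where 7.96% of all genes passed, in the tibialis anterior of cohort 3, Per1, Per2 and Cry2 were higher, and in the diaphragm of cohort 3 (1.06% of all genes) the same 3 genes were higher. Per1 in the diaphragm of cohort 3 was 5.39-fold higher (limma adjusted p = 3.09e-07). No clock gene passed in limma in the remaining 5 cohort tests. The share of all genes that passed there was 0% and 0.302% in the tibialis anterior (cohorts 2 and 4). It was 0.0345%, 2.69% and 0.384% in the diaphragm (cohorts 1, 2 and 4). Whether the 4 cohort differences were unequal was tested with a moderated F test. Diaphragm Per1 passed (limma adjusted p = 0.000652) and was the only one of all 23185 genes to do so (0.00431%). No clock gene passed in the tibialis anterior, where 3 genes did (0.0129%) and the lowest value of the 10 was that of Per1 (limma adjusted p = 0.12). Over the diaphragm arrays without liver RNA, cohort 3 kept 1 sham array, at 6.0 for Per1 and 3.45 for Per3. Unequal cohort differences in that set would rest on this array, so the F test is not given for it.

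**Figure D3:**
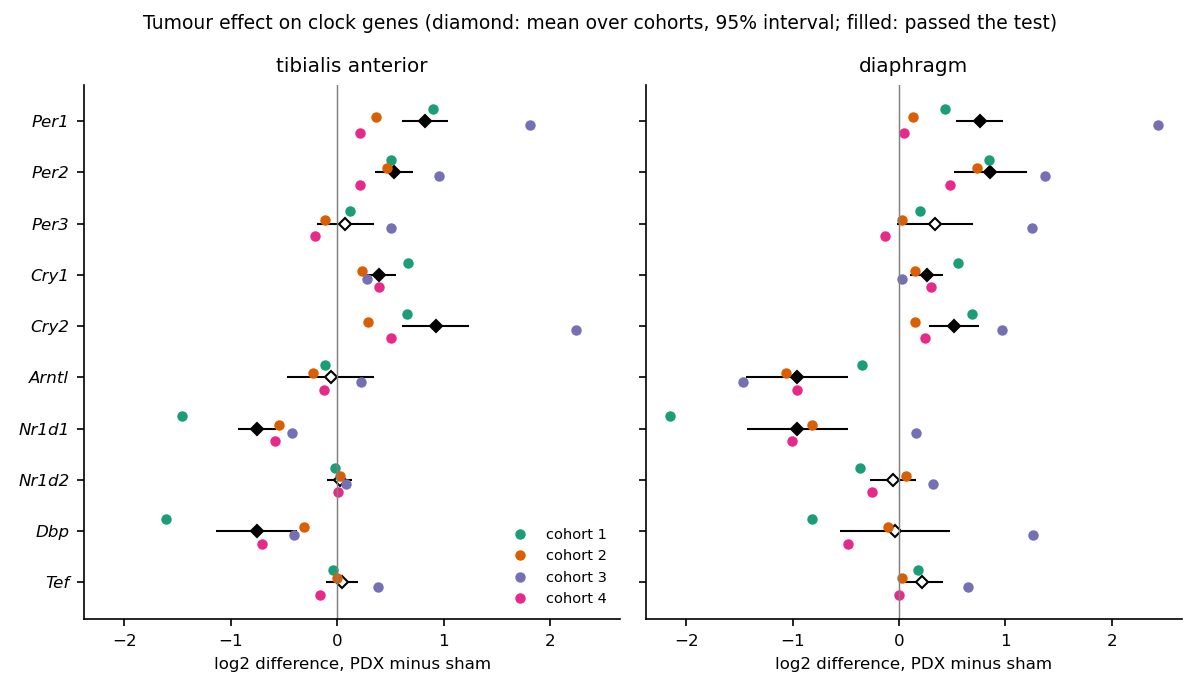
Log2 difference of PDX minus sham for the 10 genes in the tibialis anterior (left) and the diaphragm (right); coloured points are the 4 cohorts and diamonds the mean over cohorts with its 95% interval, filled where the limma adjusted p was under 0.05. Per1, Per2, Cry1 and Cry2 lie right of 0 in all cohorts of both muscles, and the cohort 3 point of diaphragm Per1 lies at 2.43.

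The sham mice of the 4 cohorts did not have the same clock gene levels, and each tumour effect is measured against its own sham group. In the sham tibialis anterior 7 of the 10 genes differed between cohorts by the F test, against 4.16% of all genes: Per1, Per2, Per3, Nr1d1, Nr1d2, Dbp and Tef (limma adjusted p between 0.00104 and 0.0199). In the sham diaphragm 4 did, against 2.27% of all genes: Per1 (limma adjusted p = 5.01e-05), Per3 (0.0166), Dbp (0.0261) and Tef (0.0352). Over the arrays without liver RNA Per1 (limma adjusted p = 0.00535), Per3 (0.00136) and Dbp (0.0107) did, against 0.0690% of all genes, over cohorts 2 to 4 and with 1 sham array left in cohort 3. Arntl in cohorts 1 to 4 averaged 5.82 ± 1.06, 5.19 ± 0.28, 6.83 ± 0.33 and 5.04 ± 0.29 (SD, n = 3) in sham diaphragm. It averaged 6.41 ± 0.45, 5.36 ± 0.35, 6.57 ± 0.50 and 5.21 ± 0.20 in sham tibialis anterior. Dbp averaged 8.02 ± 1.24, 8.11 ± 0.31, 5.86 ± 0.93 and 8.36 ± 0.40 in sham diaphragm, and 8.25 ± 0.37, 8.19 ± 0.19, 6.53 ± 0.48 and 8.31 ± 0.16 in sham tibialis anterior.

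The sham mice of cohort 3 thus had the highest mean of Arntl and the lowest of Dbp in both muscles. They also had the lowest means of Per1, Per2, Per3, Cry2, Nr1d1, Nr1d2 and Tef in both muscles. By the F test over all sham cohorts, Arntl and Cry2 passed in neither muscle, and Per2, Nr1d1 and Nr1d2 did not pass in the diaphragm. Per1 averaged 7.49 ± 0.31, 8.02 ± 0.14, 6.16 ± 0.20 and 8.49 ± 0.18 in sham diaphragm, and 7.69 ± 0.43, 8.25 ± 0.04, 7.18 ± 0.65 and 8.69 ± 0.07 in sham tibialis anterior. Cry1 was the most even, with cohort means of 4.47 to 4.61 in sham diaphragm and 4.85 to 5.10 in sham tibialis anterior, and its F test did not pass (limma adjusted p = 0.701 in the tibialis anterior). Single arrays bore on these tests. Without replicate 3 of the tibialis anterior shams of cohort 3 the count was 4 (Per3, Nr1d2 and Dbp no longer passed), and without replicate 1 of the PDX arrays of cohort 3 it was 9, with Arntl (limma adjusted p = 0.00177) and Cry2 (0.0261) added. In the diaphragm the count was 1 without replicate 3 of the shams of cohort 3 and 2 without replicate 1 of the shams of cohort 1.

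**Figure D4:**
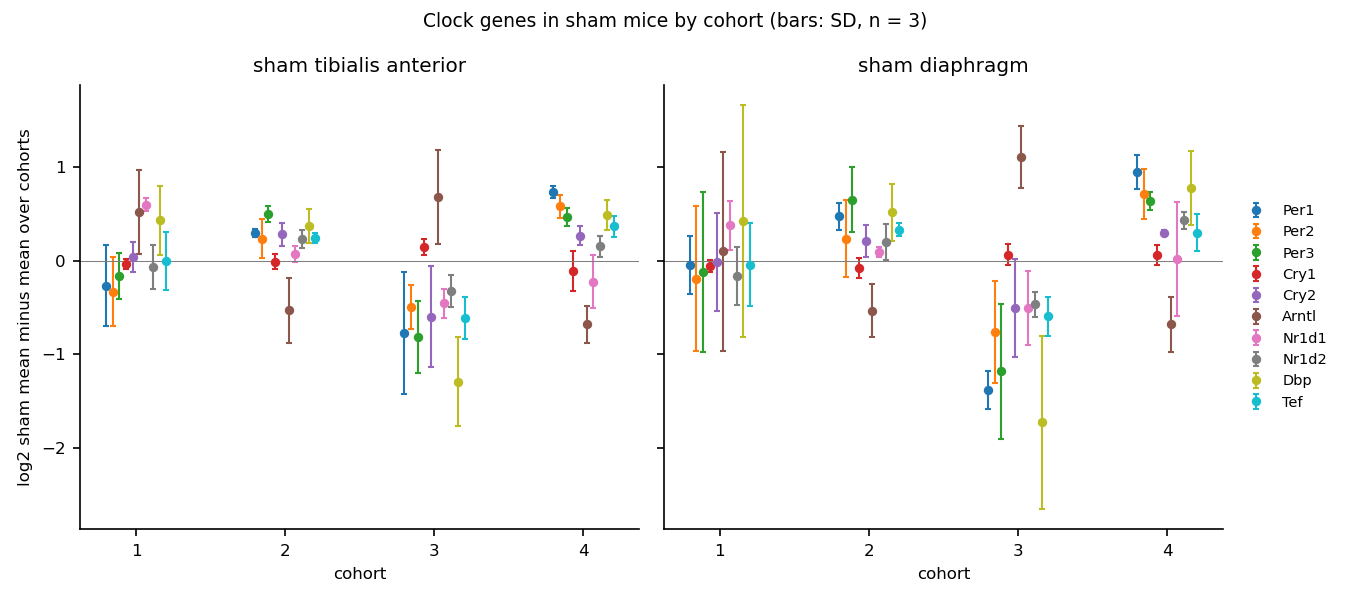
Mean log2 expression of the 10 genes in sham mice of each cohort, minus the mean of that gene over the 4 cohorts, in the tibialis anterior (left) and the diaphragm (right); bars are the SD of 3 arrays. In cohort 3, Arntl lies above 0 and Dbp, Per1, Per2 and Per3 lie below it in both muscles.

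Without a tumour, 4 of the 10 clock genes passed between the muscles, all lower in the diaphragm. Of all genes 39.7% passed between the sham muscles, a similar share, 24.5% lower and 15.2% higher in the diaphragm. All 10 clock genes had a lower mean in the diaphragm with all arrays, and how many of all genes did was not counted. The sham difference, diaphragm minus tibialis anterior, was -0.46 ± 0.09 for Tef (limma adjusted p = 0.000103), -0.41 ± 0.08 for Cry1 (limma adjusted p = 5.68e-05) and -0.54 ± 0.15 for Cry2 (limma adjusted p = 0.00367). Tef had mean levels of 5.49 in sham diaphragm and 5.95 in sham tibialis anterior, and Cry2 had 5.02 in sham diaphragm and 5.56 in sham tibialis anterior. For Per1 the difference was -0.41 ± 0.12 (limma adjusted p = 0.00442), and without cohort 3 it was -0.21 (limma adjusted p = 0.154). Of the 12 sham diaphragm arrays, 6 held liver RNA. Over the diaphragm arrays without liver RNA, cohorts 2 to 4 were left, with 1 sham array in cohort 3. The differences of Per1, Cry1, Cry2 and Tef are not given for that set. The Per3 difference was -0.60 there, against -0.37 with all arrays (limma adjusted p = 0.0823). Arntl had the opposite sign in that set.

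Whether the tumour effect itself differed between the muscles was tested as the diaphragm effect minus the tibialis anterior effect. None of the 10 genes passed in limma, against 6.33% of all genes (3.66% higher and 2.67% lower in the diaphragm). Given next are those with an unadjusted p under 0.05, a threshold at which all genes were not counted. Arntl had an effect of -0.96 in the diaphragm and -0.06 in the tibialis anterior, a difference of -0.90 ± 0.32 (limma adjusted p = 0.0833). It passed when any of 3 diaphragm arrays was left out: replicate 4 of PDX cohort 3 (limma adjusted p = 0.0485), replicate 3 of sham cohort 1 (0.0291) or replicate 2 of PDX cohort 1 (0.0276). Dbp had an effect of -0.04 in the diaphragm and -0.76 in the tibialis anterior, a difference of 0.72 ± 0.32 (limma adjusted p = 0.202). Cry2 had an effect of 0.52 in the diaphragm and 0.92 in the tibialis anterior, a difference of -0.41 (limma adjusted p = 0.253). The calls of Arntl in one muscle and of Dbp in the other are therefore not shown to differ between the muscles.

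Arrays of one group still differed in phase-related genes. After subtracting the mean of each muscle, cohort and treatment, Dbp was low where Arntl was high. For the tibialis anterior Pearson's r was -0.888 (permutation p = 0.00021, 0.00084 adjusted over 4 relations) and Spearman's rho was -0.642 (permutation p = 0.00152, adjusted 0.00608; n = 29). Without the 2 arrays farthest out on Arntl, r was -0.692. In the diaphragm r was -0.738 (permutation p = 0.00366, adjusted 0.00732), rho was -0.574 (permutation p = 0.0141, adjusted 0.0282; n = 29) and r without the 2 farthest arrays was -0.636. Within cohorts 1, 2, 3 and 4, r was -0.977, -0.147, -0.987 and -0.676 in the tibialis anterior and -0.939, -0.186, -0.591 and -0.00374 in the diaphragm, over 6 to 8 arrays each. Of the 6 diaphragm arrays of cohort 1, 5 held liver RNA. Over the diaphragm arrays without liver RNA, an alternative chosen after seeing the data, r was -0.383 (exact permutation p = 0.476, 0.882 adjusted over 4 relations) and rho -0.322 (exact permutation p = 0.392) in the 12 arrays whose group kept at least 2. The diaphragm relation therefore did not hold without the arrays that carry liver RNA, in a set with fewer arrays and no cohort 1. Between the muscles, the relation over equally numbered samples did not pass. Dbp of the diaphragm against Dbp of the tibialis anterior gave r = 0.0839 (permutation p = 0.6617, adjusted 0.8822), rho = 0.198 (permutation p = 0.3847) and r = 0.331 without the 2 farthest arrays. Its r within cohorts 1 to 4 was 0.180, 0.66, -0.098 and 0.451. Arntl gave r = -0.00165 (permutation p = 0.9963), rho = 0.208 (permutation p = 0.3545) and r = 0.187 without the 2 farthest arrays, with 0.145, 0.266, -0.215 and 0.890 within cohorts. The labels do not state that equal numbers mark the same mouse.

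**Figure D5:**
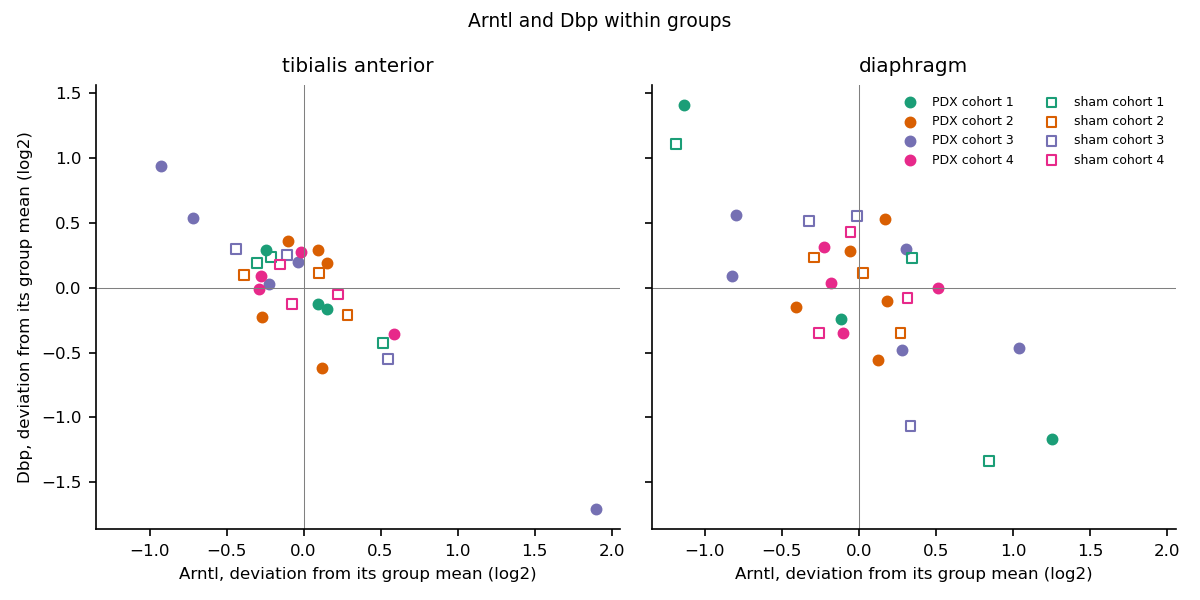
Dbp against Arntl in the tibialis anterior (left) and the diaphragm (right), each as the log2 deviation of an array from the mean of its own muscle, cohort and treatment; filled circles are PDX arrays, open squares sham arrays and colours the cohorts. The points run from high Dbp with low Arntl to low Dbp with high Arntl, and 1 tibialis anterior PDX array of cohort 3 lies far out at the lower right.

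Several other clock genes followed the same axis within groups, described here over 58 arrays that share their normalization and with no test. The 58 include the 15 diaphragm arrays with liver RNA and the far tibialis anterior PDX array of cohort 3. The values were not computed without them. Deviations of Arntl ran against those of Per3 (r = -0.79), Nr1d2 (-0.67), Per2 (-0.66) and Tef (-0.66), and Per3 ran with Tef (0.75). Per1 ran against Arntl more loosely (-0.44). Cry2 had almost no relation to Arntl (-0.00), and Nr1d1 (-0.10) and Cry1 (0.13) only weak ones. Of all other named genes, those most like Dbp were Per3 (r = 0.90), Ppat (0.74), Nr1d2 (0.72), Ky (0.70) and Tef (0.69), so 3 of the 5 were clock genes. Those most like Arntl were Cdkn1a (0.74), which encodes the cell cycle inhibitor p21, Npas2 (0.71), which encodes a stand-in for CLOCK, Peg3 (0.69), Peg3os (0.68) and Plekhg1 (0.66). Peg3os is antisense to Peg3, and the sources used here do not state how probe sets of such pairs were separated.

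Of 24 further genes of the loop and of its direct outputs, together called further loop genes here, 21 were measured. Tsc22d3 is counted among them and again among the glucocorticoid-responsive genes read further on. In the tibialis anterior 6 were higher and 2 lower in PDX, against 6.32% and 6.53% of all genes. The median of the 21 was 0.08, against -0.01 for all genes. Nfil3, which encodes the repressor that competes with DBP at D-boxes, read 5.35, 6.16 and 9.03 (lowest, median and highest) in PDX and 4.49, 5.35 and 6.30 in sham. It was 0.95 ± 0.19 higher (limma adjusted p = 0.000983), while Dbp was lower in that muscle. Rora, which encodes an activator of Arntl, was 0.53 ± 0.11 higher (limma adjusted p = 0.00118), and Csnk1e, which encodes a kinase of the PER proteins, 0.41 ± 0.06 higher (limma adjusted p = 5.42e-05). Nampt (0.16, limma adjusted p = 0.0465), Tspan4 (0.26, 0.0443) and Tsc22d3 (0.49, 0.0109) were also higher. Clock, the partner of Arntl, was lower, at -0.20 ± 0.06 (limma adjusted p = 0.0356), as was Npas2 (-0.30, 0.0286), which was dim, with a mean under the overall probe set median of 3.777. Leaving out 1 array at a time ended the calls of Nampt in 21, Tspan4 in 20, Clock in 12 and Npas2 in 4 of 29 fits. Leaving out any 1 cohort ended those of Clock and Nampt. That of Tspan4 ended without cohort 1, 2 or 4 (limma adjusted p = 0.339, 0.13 and 0.0862), that of Npas2 without cohort 1 or 2 (0.291 and 0.166) and that of Tsc22d3 without cohort 1 (0.119).

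In the diaphragm 5 of the 21 were higher and 2 lower, against 5.89% and 6.58% of all genes, with a median of 0.10 against -0.00 for all genes. Wee1, a clock output that encodes a brake on cell division, read 3.76, 4.94 and 5.57 in PDX and 3.01, 3.88 and 5.15 in sham, a difference of 0.73 ± 0.16 (limma adjusted p = 0.00313). Tspan4 (0.66 ± 0.09, limma adjusted p = 4.01e-05), Tsc22d3 (0.45 ± 0.12, 0.0148), Csnk1d (0.23 ± 0.06, 0.00795) and Fbxl21 (0.29 ± 0.09, 0.0232) were also higher, the last being dim by the same measure. Clock was lower (-0.39 ± 0.08, limma adjusted p = 0.00267), as Arntl was, and so was Btrc, whose protein marks PER proteins for destruction (-0.28 ± 0.07, limma adjusted p = 0.00536). Without cohort 3 Clock was -0.33 (limma adjusted p = 0.0509). The call of Fbxl21 ended without cohort 1, 2 or 4 (limma adjusted p = 0.106, 0.0822 and 0.0746), that of Csnk1d without cohort 1 or 2 (0.0893 and 0.0577), that of Tsc22d3 without cohort 1 or 3 (0.112 and 0.0793) and that of Btrc without cohort 4 (0.0646). Over the arrays without liver RNA none of these 7 genes passed in limma (adjusted p between 0.0567 and 0.221). Their differences there were 0.76 for Wee1, 0.52 for Tspan4, 0.30 for Tsc22d3, 0.26 for Csnk1d, 0.33 for Fbxl21, -0.40 for Clock and -0.38 for Btrc. Named after their values were seen are 3 others of the 21, higher in PDX in that set: Bhlhe40 (0.71), Bhlhe41 (0.74) and Coq10b (0.39). The first 2 encode repressors at E-boxes. Cohort 3 kept 1 sham array in that set. Over all diaphragm arrays these 3 had differences of 0.24, 0.06 and 0.05 (limma adjusted p = 0.186, 0.915 and 0.885). Their differences in cohorts 1 to 4 were -0.27, 0.10, 1.27 and -0.15 for Bhlhe40 and -0.56, -0.24, 1.71 and -0.66 for Bhlhe41. For Coq10b they were -0.31, -0.17, 0.89 and -0.22, so the clear rise of each was in cohort 3.

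Glucocorticoid-responsive genes were read beside Per1, which glucocorticoids induce. In the tibialis anterior 5 of 6 were higher and none lower, against 6.32% and 6.53% of all genes: Ddit4 by 1.90 ± 0.27 (limma adjusted p = 2.12e-05), Fkbp5 by 1.86 ± 0.23 (3.12e-06), Zbtb16 by 0.61 (0.000715), Sgk1 by 0.53 (2.9e-05) and Tsc22d3. Fkbp5 read 5.54, 7.37 and 8.59 (lowest, median and highest) in PDX and 4.33, 5.33 and 6.56 in sham. In the diaphragm 3 of 6 were higher and 1 lower, against 5.89% and 6.58% of all genes. Fkbp5 (1.53 ± 0.21, limma adjusted p = 3.62e-05), Ddit4 (0.86 ± 0.19, 0.00278) and Tsc22d3 were higher, and Nr3c1, the gene of the glucocorticoid receptor, was lower (-0.25 ± 0.08, limma adjusted p = 0.0476). Leaving out 1 array ended the Nr3c1 call in 20 of 29 fits, as did leaving out cohort 2, 3 or 4 (limma adjusted p = 0.0941, 0.412 and 0.0898). Over the arrays without liver RNA Fkbp5 was 1.58 higher (limma adjusted p = 0.0278), and Ddit4 (0.54, 0.193), Tsc22d3 (0.30, 0.218) and Nr3c1 (-0.42, 0.0607) did not pass. Their part in the Per1 difference was not tested.

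Cell type makeup moved with the groups. With the mean of the fibroblast markers as a covariate, 0 clock genes passed in limma in the tibialis anterior, against 0.0647% of all genes (15 in number). That covariate nearly separates PDX from sham in the tibialis anterior, and standard errors were 2.93 times larger at the median. Per1 was then 1.02 (limma adjusted p = 0.33), Per2 0.69 (0.463), Cry1 0.44 (0.621) and Nr1d1 -0.55 (0.564), with the sign they had without it. Cry2 was -0.35 (0.838) and Dbp 0.62 (0.757), with the opposite sign. Fkbp5 (-0.09) and Ddit4 (-0.76) also turned sign there. In the diaphragm Per1 (0.71, limma adjusted p = 0.00129), Per2 (0.77, 0.0164) and Cry2 (0.55, 0.0149) passed with the covariate, against 6.47% of all genes. Cry1 (0.26, limma adjusted p = 0.0705), Arntl (-0.88, 0.0525) and Nr1d1 (-0.72, 0.0981) did not. The part of cell type makeup in the clock gene differences was not tested beyond this.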

How the data were processed

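Biotin-labelled RNA of both muscles was hybridised to Affymetrix arrays. What the authors deposited is a table of log2 values for 25206 probe sets on 58 arrays, made with RMA in affy 1.36.1 and R 2.15.1 according to the submitters' processing notes. How probe sets were defined is not given in the sources used here. Symbols from the platform annotation covered 23185 probe sets, and 2021 without one were left out. Array medians lay between 3.702 and 3.862, and the number of arrays limits the precision.

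Tests used limma 3.58.1 in R 4.3.3 with no filter on dim genes. The model for each muscle had 8 group means (cohort by treatment), and cohorts were weighted equally in the tumour effect. Differences between muscles came from all 58 arrays together. Tests were two-sided and tested on simulated data. Correlations used 100000 permutations within groups, and that over diaphragm arrays without liver RNA, added after seeing the data, all 288 arrangements within groups. Alternatives covered normalization, filters, variance models, array weights, the replicate number, cohorts, single arrays, fibroblast markers and liver RNA. The labels do not state that each array is a separate animal, so the spread behind a p-value may be technical. Named were all 10 clock genes, the other loop genes that passed, 6 glucocorticoid-responsive genes and the 5 genes most like Arntl and the 5 most like Dbp. Members and lists were chosen with earlier results of these data known.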

Additional observations from a re-analysis of the deposited data

Results flagged for a closer look

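Among 60 groups of 4 or 5 arrays checked for a single distant value, 2 had one, and chance gives about 1 in 20. Per2 of replicate 3 of the tibialis anterior PDX arrays of cohort 2 was 6.15, with the others at 5.81 to 5.89. Tef of replicate 5 of the same group was 6.0, with the others at 6.21 to 6.27.

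The 4 cohort differences of diaphragm Per1 were unequal by the moderated F test (limma adjusted p = 0.000652), with 2.43 in cohort 3 and 0.05 to 0.44 in the others. Diaphragm Per3 was above the sham mean in every PDX array of cohort 3 and below it in every PDX array of cohort 4, and the cohort differences of 1.25 and -0.13 lay 1.38 apart. Diaphragm Dbp did the same, with 1.26 in cohort 3 and -0.48 in cohort 4, which lay 1.74 apart. For Per3 and Dbp the difference between these 2 cohorts was not tested on its own, and the F test over all 4 cohorts gave a limma adjusted p of 0.636 for each.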

How the results depend on the processing

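Of 109 alternatives to the counts and correlations, 87 left them within 1.5 times of the reported value and on the same side of the test. Leaving out single arrays kept the number of clock genes that passed at 6 in each muscle, and gave ranges of 4 to 10 further loop genes in the tibialis anterior, 6 to 7 in the diaphragm, 0 to 1 for the difference between muscles, 4 to 5 for the sham muscles, 4 to 9 and 1 to 5 for sham cohorts in the tibialis anterior and diaphragm, and 0 to 1 and 1 to 1 for unequal cohort differences. With array weights, 1 clock gene passed for the difference between muscles, 1 for unequal cohort differences in the tibialis anterior and 8 for sham cohorts in the diaphragm. One fit of all arrays gave 1 and 7 for the last 2. Without cohort 1, 1 passed for the difference between muscles. With the cohort as the replicate, 3 clock genes passed in the tibialis anterior (Per2, Cry1 and Nr1d1) and 2 in the diaphragm (Per2 and Arntl), with 2 and 3 further loop genes. The fibroblast covariate gave 0 and 3 clock genes and 0 and 2 further loop genes. Further loop genes of the tibialis anterior numbered 3, 4 and 5 without cohorts 1, 2 and 4. Without liver RNA, cohort 3 kept 1 sham diaphragm array, and counts for that set are left out here. The diaphragm correlation of Dbp with Arntl was -0.383 and did not pass without liver RNA, an alternative added after seeing the data. Apart from tests on fewer arrays or cohorts, the cause was not tested.

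Equally numbered samples of the muscles did not deviate together (29 pairs, correlations of -0.222 to 0.222, median 0.0174), nor did PDX and sham of the tibialis anterior (-0.231 to 0.0925), and those of the diaphragm ranged over -0.586 to 0.647. With the replicate block, all 6 called clock genes of each muscle kept their call, and 5 further loop genes of the tibialis anterior passed.

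Signs turned mostly for values near 0, and with the fibroblast covariate also for large ones. Diaphragm Dbp was 0.00399 with array weights, 0.225 and 0.113 without cohorts 1 and 4, 0.0816 with the fibroblast covariate and 0.476 without liver RNA. Diaphragm Nr1d2 was 0.0456 and 0.00733 without cohorts 1 and 4 and 0.110 without liver RNA. Without cohort 3, tibialis anterior Per3 was -0.0666 and Tef -0.0677. For the difference between muscles, Per1 was 0.0704 without cohort 1 and 0.199 without liver RNA, Nr1d2 0.00724 and 0.0717, and Nr1d1 0.143 without liver RNA. Sham Arntl was 0.0855 without liver RNA. With the fibroblast covariate, tibialis anterior Cry2 was -0.355, Dbp 0.621, Tef -0.0898, Rora -0.482, Tsc22d3 -0.133, Fkbp5 -0.0947, Zbtb16 -0.331 and Ddit4 -0.761. Leaving out single arrays gave -0.181 to 0.00625 for tibialis anterior Arntl, -0.00684 to 0.0529 for Nr1d2 there, -0.144 to 0.0261 for diaphragm Nr1d2, -0.212 to 0.111 for diaphragm Dbp, and for the difference between muscles -0.125 to 0.0302 for Per1 and -0.166 to 0.00354 for Nr1d2. Without the 2 farthest arrays, Arntl of both muscles correlated at 0.187.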
